A study of Mus musculus with 12 samples.

Results

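Sorted cells of the mouse aorta and its surrounding perivascular fat were compared across a divide of cell type: the Intermediate and SMC1 populations on one side, and the Progenitor and SMC2 populations on the other. The mice were male, wild-type and 13 weeks old, of the CD-1 strain. That strain is outbred, the labels name no transgene or treatment, and the tissue was digested and sorted by flow cytometry into progenitor cells (Progenitor), intermediate cells (Intermediate) and a pair of smooth muscle populations (SMC1 and SMC2). Each population had 3 libraries of poly(A) RNA, so all 12 libraries of the series entered the comparison, 6 against 6. Antibodies and gates are not given in the sources used here. The labels use the same library numbers in every population, but do not say whether a number marks an animal. The p-values therefore reflect spread among libraries that may be technical in origin.

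A gene was counted as shared when it changed in the same direction in Intermediate over Progenitor and in SMC1 over SMC2, comparisons that have no library in common. The test was edgeR's quasi-likelihood F test, and a change counted as called where its Benjamini-Hochberg adjusted p over the 19016 genes tested fell below 0.05. By this rule 1042 genes were higher in both Intermediate and SMC1, and 462 were lower in both, 1504 of 19016. Levels are CPM, read counts scaled to the size of the library. They are given as the values of libraries 1, 2 and 3, or as mean ± SD (n = 3), and changes are on the log2 scale with their standard error.

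The wall of a large artery is built of smooth muscle layers between sheets of elastin, an insoluble protein that is cross-linked by lysyl oxidase onto a scaffold of fibrillin microfibrils. Fibroblast-like stromal cells occupy the outer coat and the fat beyond it, and some of them can become fat cells under the nuclear receptor PPARgamma. Secreted antagonists of Wnt and BMP ligands shape how such cells mature, and calcification of the matrix is held back by dedicated inhibitors such as matrix Gla protein.

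The labels were checked against identity genes. Pdgfra, a receptor of stromal cells, was at 814, 582 and 1131 CPM in Progenitor and 769.8, 795 and 891 in Intermediate. It was at 5.80, 7.51 and 8.28 in SMC2 and 27.6, 23.8 and 26.4 in SMC1, so the stromal and muscle groups did not overlap. Acta2, smooth muscle actin, ran the other way, with 96.8, 282 and 229.6 CPM in Progenitor, 243, 299 and 214 in Intermediate, 16652, 14942 and 11929 in SMC2 and 21050.2, 16910.3 and 20494 in SMC1. Acta2 was called in neither comparison, with changes of 0.31 ± 0.29 for Intermediate over Progenitor and 0.43 ± 0.29 for SMC1 over SMC2 (adjusted p = 0.474 and 0.268), and its Progenitor and Intermediate values overlapped. Myh11, smooth muscle myosin, was not called either (0.19 ± 0.34 for Intermediate over Progenitor and 0.42 ± 0.34 for SMC1 over SMC2, adjusted p = 0.739 and 0.362). Ucp1, the uncoupling protein of thermogenic fat, did not exceed 1.04 CPM in any library.

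Depth ran from 13258631 to 22647175 counts per library. The number of genes with any count moved with the comparison: it was 25880 to 29677 in Intermediate against 29943 to 30608 in Progenitor, and 25523 to 28643 in SMC1 against 27811 to 32196 in SMC2. Mitochondrial transcripts took 0.540% to 0.545% of counts in Intermediate, 0.855% to 1.45% in Progenitor, 0.972% to 1.40% in SMC1 and 1.49% to 1.86% in SMC2. The part of either in the results was not tested. SMC1 replicate 1 stood apart in myeloid markers, whose summed level was 714 CPM there and 164 to 334 CPM across the other SMC libraries.

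Intermediate differed from Progenitor by 2419 genes called higher (12.7% of those tested) and 1799 called lower (9.46%), 22.2% of genes in either direction. SMC1 differed from SMC2 by 3439 called higher (18.1%) and 3139 called lower (16.5%), 34.6% of genes in either direction. Without SMC2 replicate 2, 1600 genes were called higher in Intermediate over Progenitor and 1924 lower, the reverse balance. Without Intermediate replicate 2, 1155 were called lower. The genes higher in both made up 5.48% of all genes tested, 43.1% of the genes higher in Intermediate and 30.3% of those higher in SMC1. The genes lower in both made up 2.43% of all genes tested, 25.7% of the genes lower in Intermediate and 14.7% of those lower in SMC1. Genes called in opposite directions were fewer: 295 (1.55%) were higher in Intermediate and lower in SMC1, and 165 (0.868%) were lower in Intermediate and higher in SMC1. The average of both comparisons, 6 libraries against 6 with a mean for each population, called 4048 genes higher (21.3%) and 3250 lower (17.1%), 38.4% in either direction. Of these, 1504 were the shared genes, 1475 were called in Intermediate over Progenitor alone, 3320 in SMC1 over SMC2 alone, 118 in opposite directions and 881 in neither. Across all genes tested the changes had a Pearson correlation of 0.278 and a Spearman correlation of 0.276, a description over genes, which are not replicates and which share the scaling of the libraries.

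Of the 1042 shared higher genes, 386 were at least 2-fold higher in both comparisons and 61 at least 4-fold. Of the 462 shared lower genes, 288 were at least 2-fold lower in both and 93 at least 4-fold. The libraries of the groups did not overlap in either comparison for 976 of the higher and 430 of the lower genes, beside 1696 (8.92%) and 894 (4.70%) of all genes tested. A stricter separation, in which all 6 Intermediate and SMC1 libraries lay beyond all 6 Progenitor and SMC2 libraries, held for 414 of the higher and 198 of the lower genes, beside 595 (3.13%) and 342 (1.80%) of all genes tested. These counts describe the same libraries that made the calls, so they add no separate evidence for the shared genes. The highest adjusted p inside the rule belonged to Xpo6 (just under 0.05 in its weaker comparison), and the nearest gene outside it was Tmem81 at 0.0502. Protein-coding genes made up 96.4% of the higher and 90.7% of the lower genes, beside 78.9% of all genes tested.

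The balance of higher and lower genes depended on how the libraries were scaled. With TMM factors 69.3% of the shared genes were higher, against 63.5% with RLE factors (868 higher and 499 lower) and 48.5% with upper-quartile factors (662 higher and 704 lower). A filter that kept genes at 5 CPM or more in at least 3 libraries gave 52.3% (702 higher and 641 lower). Upper-quartile factors moved the median change over all genes from 0.08 to -0.08 in Intermediate over Progenitor and from 0.003 to -0.107 in SMC1 over SMC2. Leaving out SMC2 replicate 2 left 683 shared higher genes, and leaving out Intermediate replicate 2 left 305 shared lower genes. All of the 15 leading higher and 15 leading lower genes described below kept both calls under each of these settings and under the other alternatives.

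**Figure D1:**
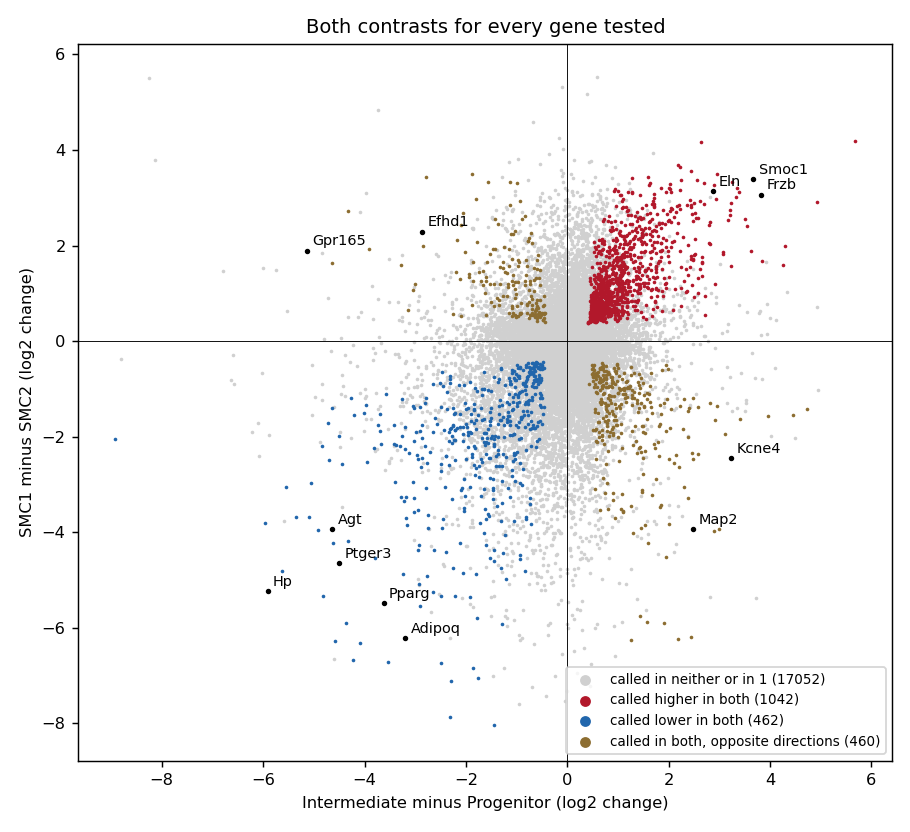
Each point is 1 of the 19016 genes tested, with the log2 change of Intermediate over Progenitor on the horizontal axis and of SMC1 over SMC2 on the vertical axis. Colours mark the 1042 genes called higher in both, the 462 lower in both and the 460 called in opposite directions. The upper right holds Eln and Smoc1, the lower left Hp and Pparg.

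Several of the leading shared higher genes encode matrix proteins. Eln, which encodes elastin (chr5:134702593-134747323, minus strand, GRCm38), was at 150.0, 274 and 295 CPM in Progenitor against 2363, 1706 and 1231 in Intermediate, and 347, 723 and 517 in SMC2 against 5388, 3759.9 and 4806 in SMC1. The 6 libraries of Intermediate and SMC1 all lay above the 6 others, although SMC2 was above Progenitor. Its changes were 2.88 ± 0.31 for Intermediate over Progenitor and 3.14 ± 0.32 for SMC1 over SMC2 (adjusted p = 2.46e-06 and 2.60e-07). Mfap4, a microfibril-associated glycoprotein that binds elastic fibres, was at 538, 997 and 807 CPM in Progenitor and 6068, 4305 and 3682 in Intermediate, beside 143, 383 and 322 in SMC2 and 1701, 1416 and 1937 in SMC1. Again no library of the lower groups reached the higher ones, and here the stromal member of each side was the higher, the reverse of Eln.

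Of 22 members of the elastic fibre list, 10 were called higher and 3 lower in Intermediate over Progenitor, and 17 higher and 1 lower in SMC1 over SMC2. The 9 that were higher in both were Eln, Emilin1, Fbln5, Lox, Ltbp1, Ltbp2, Ltbp3, Ltbp4 and Mfap4, and none was lower in both. The median changes of the list were 0.59 and 1.89, beside 0.08 and 0.003 over all genes tested. For this list and those that follow, the shares of all genes tested are the background. They were 12.7% higher and 9.46% lower in Intermediate over Progenitor, and 18.1% and 16.5% in SMC1 over SMC2. In both comparisons they were 5.48% higher and 2.43% lower. Ltbp2, a latent TGF-beta binding protein of microfibrils, changed by 3.63 ± 0.24 for Intermediate over Progenitor and 1.89 ± 0.23 for SMC1 over SMC2, and Lox, lysyl oxidase itself, by 1.33 ± 0.23 for Intermediate over Progenitor and 1.68 ± 0.23 for SMC1 over SMC2. Of these 9, 7 (Eln, Fbln5, Lox, Ltbp1, Ltbp2, Ltbp3 and Mfap4) kept both calls in every alternative except the test against a 1.5-fold change. The list also moved apart: by a test of the difference, 14 of its members had a more positive change in SMC1 over SMC2 (10.3% of all genes tested did) and 1 had a more positive change in Intermediate over Progenitor (12.2%). Loxl2 was called in opposite directions, at -1.15 and 1.57.

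Collagens followed a narrower pattern. Of 42 chains, 10 were called higher and 5 lower in Intermediate over Progenitor, and 23 higher and 8 lower in SMC1 over SMC2, with medians of -0.07 and 1.16. The chains higher in both were Col1a1 and Col1a2 of fibrils, Col4a3, Col4a4, Col4a5 and Col4a6 of specialised basement membranes, Col8a1, Col8a2 and Col16a1. Col4a6 was at 21.6, 38.8 and 51.7 CPM in Progenitor against 319.7, 330.5 and 389.7 in Intermediate, and 57.0, 61 and 50.4 in SMC2 against 370.3, 352 and 408 in SMC1. Its higher libraries lay close together across the divide, between 319.7 and 408 CPM, and above all others. The adjacent chain Col4a5 changed by 1.92 ± 0.24 for Intermediate over Progenitor and 2.45 ± 0.25 for SMC1 over SMC2, and Col4a3 by 3.07 ± 0.20 for Intermediate over Progenitor and 1.82 ± 0.22 for SMC1 over SMC2. Col4a1, a chain of the common basement membrane network, was instead called in opposite directions, with changes of -0.66 and 1.28, as was Col18a1 with -0.78 and 2.09. Col5a3 and Col24a1 were lower in both, Col5a3 by -2.98 and -1.91.

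Among 29 proteoglycans, 10 were called higher and 4 lower in Intermediate over Progenitor, and 11 higher and 4 lower in SMC1 over SMC2 (medians 0.43 and 0.31). Bgn, Gpc6, Prelp and Sdc3 were higher in both, and the glypican Gpc3 was lower in both. Biglycan (Bgn), a small proteoglycan bound to collagen and elastin, was at 965 ± 217 CPM in Progenitor, 2928 ± 1052 in Intermediate, 422 ± 122 in SMC2 and 2192 ± 607 in SMC1. These groups did not overlap within either comparison.

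Inhibitors and regulators of mineralisation were also among the leading shared higher genes. Mgp, matrix Gla protein (chr6:136872435-136875823, minus strand), was at 556, 619.9 and 345 CPM in Progenitor against 3866, 2851 and 2599.6 in Intermediate, and 163, 345 and 317 in SMC2 against 2413, 2007 and 1920.2 in SMC1. The lowest of its 6 higher libraries was 1920.2 CPM, beyond the highest of the others at 619.9 CPM. Its changes of 2.61 ± 0.28 for Intermediate over Progenitor and 2.94 ± 0.28 for SMC1 over SMC2 differed by -0.33 ± 0.37 (adjusted p = 0.589), so a difference between the comparisons was not called. Tnfrsf11b, or osteoprotegerin, a decoy receptor that blocks bone-resorbing signals, was at 4.83, 4.93 and 4.67 CPM in Progenitor and 47.7, 31.7 and 32.8 in Intermediate, beside 7.91, 15.9 and 9.60 in SMC2 and 128, 142 and 107 in SMC1. Phex, an endopeptidase that controls phosphate handling, was at 6.79, 7.0 and 9.29 CPM in Progenitor against 34.4, 42.6 and 59.0 in Intermediate, and 0.64, 2.32 and 1.5 in SMC2 against 15.4, 15.8 and 14.7 in SMC1. Both genes separated the 6 libraries from the 6 others. Of 31 genes of cartilage, tendon and mineralisation, 14 were called higher and 2 lower in Intermediate over Progenitor, and 11 higher and 7 lower in SMC1 over SMC2 (medians 1.18 and 0.33). Alpl, Ank, Comp, Enpp1, Mgp, Phex and Tnfrsf11b were higher in both and none was lower in both, whereas Dmp1, Mkx and Tnmd were higher in Intermediate and lower in SMC1. Alpl and Enpp1 encode enzymes with opposite roles in the supply of pyrophosphate, the mineralisation inhibitor that Ank exports, and Enpp1 changed by 1.68 and 1.88 while Alpl changed by 1.58 and 1.22.

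Secreted modulators of Wnt and BMP signals were also among the most changed genes. Frzb, a soluble Wnt-binding protein, was at 22.0, 25.9 and 26.7 CPM in Progenitor against 449, 283 and 316 in Intermediate, and 6.35, 20.2 and 15.5 in SMC2 against 100.4, 92.0 and 158 in SMC1. Sfrp2, a relative of Frzb, was at 185, 445 and 367 CPM in Progenitor and 2759, 2059 and 1631 in Intermediate, beside 9.53, 24.4 and 29.4 in SMC2 and 183, 99.1 and 179.9 in SMC1. Frzb separated the 6 libraries from the 6 others, while Sfrp2 did so only within each comparison, because its SMC1 values lay below all Progenitor values. Smoc1, a secreted matrix protein that modulates BMP signalling (chr12:81026808-81186414, plus strand), was at 9.39, 14.3 and 20.1 CPM in Progenitor against 234, 155 and 167 in Intermediate, and 41, 95 and 81.1 in SMC2 against 736, 606 and 929.9 in SMC1. Among shared higher genes that met the naming conditions it had the largest smaller change, 3.67 ± 0.33 for Intermediate over Progenitor and 3.39 ± 0.32 for SMC1 over SMC2 (adjusted p = 7.12e-07 and 3.05e-07). Ccn3, a matricellular protein of the CCN family, was at 61.5, 76.1 and 80.5 CPM in Progenitor and 787, 754 and 643 in Intermediate, beside 243, 529 and 311 in SMC2 and 3107, 2557 and 3062 in SMC1, with its SMC2 libraries above its Progenitor libraries and below the 6 higher ones.

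In the Wnt list, 17 were called higher and 6 lower in Intermediate over Progenitor, and 20 higher and 11 lower in SMC1 over SMC2 of 47 tested (medians 0.28 and 0.23). Among ligands, Wnt5a and Wnt9a were higher in both and Wnt11 was lower in both, by -2.65 and -1.90. Receptors higher in both were Fzd1, Fzd2, Fzd5, Fzd6 and Fzd8 with the co-receptors Lrp5 and Lrp6, and Fzd2 changed by 1.71 and 2.07. The antagonists Frzb and Sfrp2 were higher in both. So was Dkk3, a member of the Dickkopf family that changed by 2.04 ± 0.26 for Intermediate over Progenitor and 2.78 ± 0.27 for SMC1 over SMC2. Tcf7l2, a transcription factor at the end of the pathway, completed the 13 higher genes. A further 3 genes of the list were higher in Intermediate and lower in SMC1. Of the 13, 8 (Dkk3, Frzb, Fzd1, Fzd2, Fzd8, Sfrp2, Wnt5a and Wnt9a) kept both calls in every alternative except the 1.5-fold test.

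In the BMP and TGF-beta list, 16 were called higher and 6 lower in Intermediate over Progenitor, and 20 higher and 12 lower in SMC1 over SMC2 of 45 tested (medians 0.45 and 0.52). Higher in both were the ligands Bmp3 and Tgfb1, the receptors Acvr1, Bmpr1b and Eng, the antagonists Chrd and Fstl3, and the inhibitory Smad6, of which Bmpr1b, Chrd and Fstl3 kept both calls with the other scalings. Bmpr1b, a type I BMP receptor, changed by 2.20 ± 0.29 for Intermediate over Progenitor and 2.84 ± 0.28 for SMC1 over SMC2. The ligand Bmp5 and the activin antagonist Fst were lower in both. Fstl3 shares 47.3% of its exon bases with another gene, so its count is uncertain. In the Hedgehog list, 6 were called higher and 1 lower in Intermediate over Progenitor, and 9 higher and 1 lower in SMC1 over SMC2 of 16 (medians 0.39 and 0.78). The surface proteins Boc, Hhip and Smo were higher in both. Hhip, which binds and sequesters Hedgehog ligands, changed by 4.25 ± 0.31 for Intermediate over Progenitor and 1.60 ± 0.34 for SMC1 over SMC2, a difference of 2.65 ± 0.45 between the comparisons (adjusted p = 2.92e-04). For Notch, 6 were called higher and 2 lower in Intermediate over Progenitor, and 4 higher and 7 lower in SMC1 over SMC2 of 19 (medians 0.31 and 0.09), with Maml2 higher in both and Dlk1 and Notch1 lower in both. The 1 of 19 that was higher in both lay near the 5.48% of all genes tested.

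Axon guidance molecules, which also steer vessels and mesenchymal cells, gave the longest shared list. Of 45 members, 17 were called higher and 5 lower in Intermediate over Progenitor, and 22 higher and 8 lower in SMC1 over SMC2 (medians 0.37 and 0.80). The 14 higher in both were the ephrins Efna5 and Efnb2, the ephrin receptors Epha3, Epha7, Ephb3 and Ephb6, the semaphorins Sema3d and Sema3f, the semaphorin receptor subunits Plxna2, Plxna3 and Plxna4, and Ntn1, Slit2 and Unc5b. Plxnd1 was the single gene lower in both, and 10 of the 14 kept both calls in every alternative except the 1.5-fold test. Epha3 was at 119.8 ± 12.6 CPM in Progenitor, 562 ± 31.5 in Intermediate, 20.5 ± 7.0 in SMC2 and 185 ± 26.3 in SMC1. Sema3d changed by 1.72 ± 0.24 for Intermediate over Progenitor and 2.99 ± 0.26 for SMC1 over SMC2. The semaphorin receptor subunit Plxna4 changed by 1.96 ± 0.23 for Intermediate over Progenitor and 2.66 ± 0.24 for SMC1 over SMC2.

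Targets of YAP and TEAD, the transcriptional arm of the Hippo pathway that responds to matrix stiffness and cell shape, included 6 genes higher in both (Amotl2, Ccn1, Ccn2, Lats2, Ptpn14 and Rbms3) and none lower in both, with Ccn1, Ccn2 and Ptpn14 kept in every alternative except the 1.5-fold test. Of 22 members, 7 were called higher and 2 lower in Intermediate over Progenitor, and 11 higher and 6 lower in SMC1 over SMC2 (medians 0.44 and 0.57). Ccn2, or connective tissue growth factor, was at 191, 328 and 259 CPM in Progenitor against 3551, 1849 and 1615 in Intermediate, and 407, 873 and 592 in SMC2 against 3821, 2898 and 4186 in SMC1. Its groups did not overlap within either comparison, and its change was 3.17 ± 0.33 for Intermediate over Progenitor and 2.54 ± 0.32 for SMC1 over SMC2. Ccn1 changed less, by 0.88 ± 0.20 for Intermediate over Progenitor and 1.29 ± 0.20 for SMC1 over SMC2 (adjusted p = 0.00337 and 3.63e-05). Its promoter window is printed because a TEAD motif, GGAATG, was searched on both strands in the windows of all genes. Sequences are RefSeq promoter windows on GRCm38.p6 from 250 bases before to 50 after the start, 5′ to 3′ in the direction of the gene, with the match in capitals as its reverse complement (chr3:145649936-145650235, minus strand).

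Ccn1: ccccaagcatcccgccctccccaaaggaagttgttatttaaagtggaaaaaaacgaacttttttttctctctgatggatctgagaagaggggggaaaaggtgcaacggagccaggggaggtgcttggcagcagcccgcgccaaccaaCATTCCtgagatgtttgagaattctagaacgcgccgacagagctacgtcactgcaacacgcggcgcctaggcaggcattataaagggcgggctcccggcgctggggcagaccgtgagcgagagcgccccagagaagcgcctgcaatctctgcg

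A match says only that these letters are in the window. GGAATG was in 13.1% of 1069 windows of shared higher genes, 16% of 413 windows of shared lower genes, 13.0% of 16045 windows of genes tested and 14.7% of all 32851 windows. A window was found for 788 of the 1042 higher and 322 of the 462 lower genes, and some genes have several. The GC box GGGCGG was in 62.9%, 52.3%, 56.7% and 35.7% of windows in the same order, and TATAAA in 7.11%, 9.69%, 8.13% and 13.6%.

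Other genes of the leading 15 had varied roles. Adcy7, an adenylate cyclase that makes cyclic AMP, was at 70.0, 108 and 133 CPM in Progenitor and 742, 832 and 750.2 in Intermediate, beside 20.3, 43.7 and 36.5 in SMC2 and 313, 297 and 363 in SMC1. The lowest of its 6 higher libraries was 297 CPM, and the others reached at most 133 CPM.

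Fbxo40, a muscle subunit of a ubiquitin ligase, was at 0.64, 0.87 and 1.58 CPM in Progenitor against 9.20, 9.86 and 11.8 in Intermediate, and 6.26, 12.4 and 9.84 in SMC2 against 77.8, 88.9 and 95.5 in SMC1. Here the stromal and muscle levels were offset, so that SMC2 overlapped Intermediate while each comparison on its own was separated. The endothelial and cartilage transcription factor Erg was at 0.14, 0.60 and 0.69 CPM in Progenitor and 3.79, 3.89 and 2.75 in Intermediate, beside 1.56, 2.42 and 2.82 in SMC2 and 14.8, 18.5 and 19.7 in SMC1. It was near 0 in Progenitor, and its SMC2 libraries overlapped the Intermediate ones by 1 library. Cpb1, a carboxypeptidase, was at 1.69, 0.93 and 2.78 CPM in Progenitor against 14.1, 17.3 and 19.7 in Intermediate, and 0.87, 2.57 and 0.96 in SMC2 against 14, 9.61 and 9.55 in SMC1, a low level in all groups that still separated the 6 libraries from the 6 others. In all, 12 of the 15 genes separated them, beside 3.13% of all genes tested, but the 15 were chosen for having no overlap within either comparison.

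**Figure D2:**
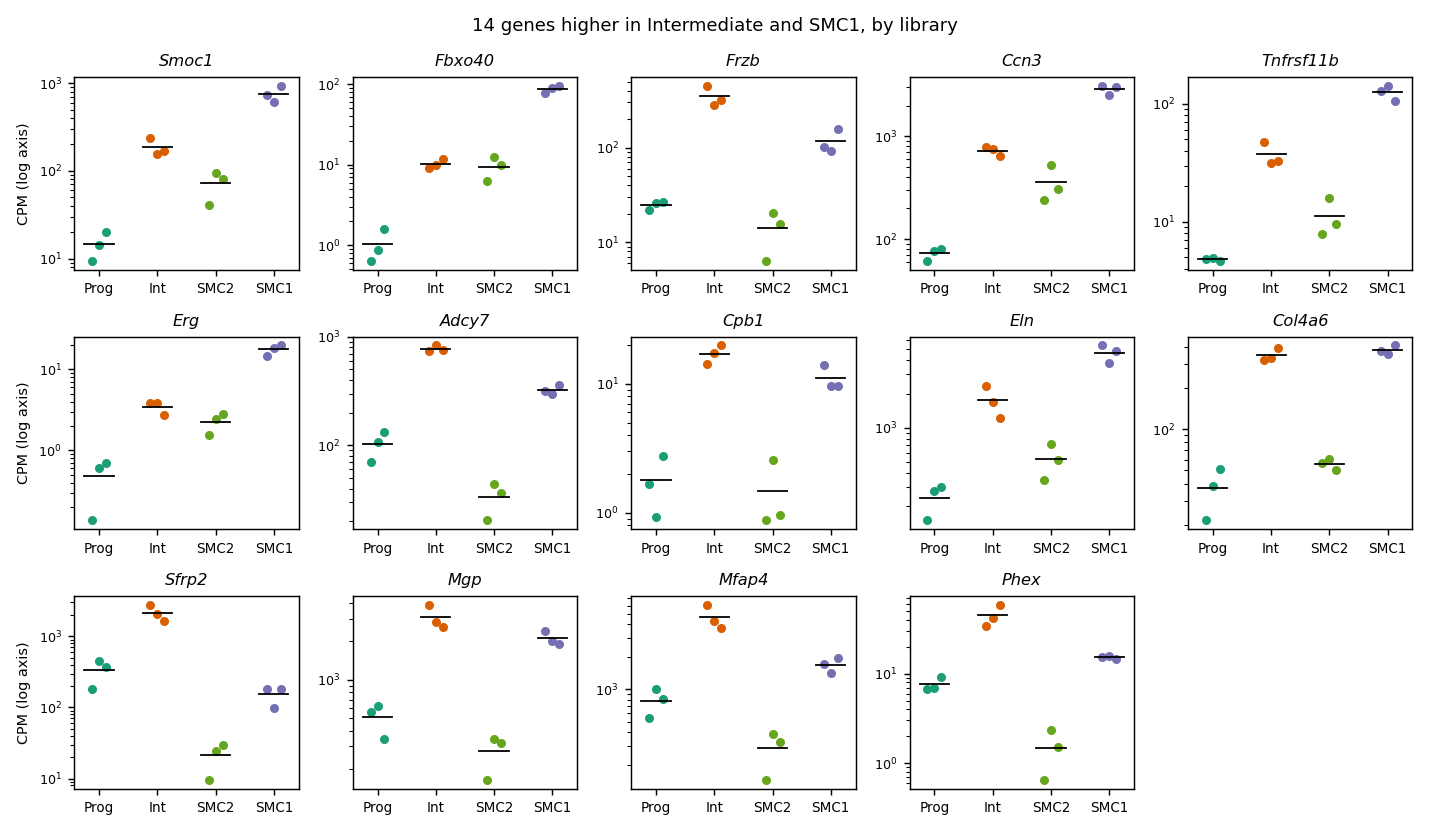
Of the 15 genes higher in both comparisons with the largest smaller change, 14 are shown, as CPM on a log axis for each library (points) and the group mean (bars), in the order Progenitor, Intermediate, SMC2 and SMC1. The genes were chosen for having no overlap within either comparison. In each panel the Intermediate points therefore lie above the Progenitor points and the SMC1 points above the SMC2 points.

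Markers of vessel cells moved beside these genes. Of 16 endothelial markers, 3 were called higher and 1 lower in Intermediate over Progenitor, and 10 higher and 1 lower in SMC1 over SMC2, with Eng, Erg and Flt1 higher in both. Their summed level was 284 to 455 CPM in Progenitor, 349 to 449.6 in Intermediate, 599.5 to 617 in SMC2 and 592 to 932 in SMC1, where replicate 1 had the highest sum and another library lay below all of SMC2. Esam made up most of the SMC2 sum, at 494, 361 and 315 CPM, and ran against the list, at 104, 51.7 and 81.4 in SMC1. Pecam1, a defining endothelial gene, was at 27.3, 49.5 and 53.6 CPM in Progenitor against 58.2, 65.0 and 50.3 in Intermediate, and 23.0, 64.9 and 61.5 in SMC2 against 218, 209.9 and 200.4 in SMC1, and it was called in SMC1 over SMC2 (adjusted p = 6.90e-05) and not in Intermediate over Progenitor (adjusted p = 0.364). Mesothelial markers moved in the stromal comparison: of 16 markers, 12 were called higher and 2 lower in Intermediate over Progenitor, and 1 higher and 3 lower in SMC1 over SMC2, with summed levels of 968 to 1262 CPM in Progenitor, 1365 to 1672 in Intermediate, 518 to 673 in SMC2 and 202 to 311 in SMC1. Igfbp5 made up most of the mesothelial sums in Intermediate (995, 982 and 934 CPM) and SMC2 (595, 445 and 418), and Igfbp5 with Efemp1 most of those in Progenitor. The median changes of the list were 2.28 for Intermediate over Progenitor and 0.62 for SMC1 over SMC2. Sum and median thus went opposite ways in SMC1 over SMC2. Krt18 was the mesothelial marker higher in both. The part of these cells in the shared genes was not tested. In bulk samples of sorted cells, fewer cells of a type and less RNA per cell cannot be told apart.

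Several of the leading shared lower genes belong to fat cells. Pparg, which encodes the nuclear receptor PPARgamma (chr6:115360951-115490399, plus strand), was at 38.1, 18.1 and 27.6 CPM in Progenitor against 2.24, 2.32 and 2.24 in Intermediate, and 456, 329 and 315 in SMC2 against 12.4, 6.76 and 5.33 in SMC1. Its 6 Intermediate and SMC1 libraries all lay below the 6 others, and the highest of them was 12.4 CPM. The change was -3.62 ± 0.33 for Intermediate over Progenitor and -5.48 ± 0.32 for SMC1 over SMC2 (adjusted p = 6.45e-07 and 8.64e-10). Adipoq, the fat hormone adiponectin, was at 6.97, 2.27 and 3.92 CPM in Progenitor and 0.37, 0.63 and 0.45 in Intermediate, beside 59.7, 96.9 and 114 in SMC2 and 1.73, 0.37 and 1.58 in SMC1. Lpl, lipoprotein lipase, was at 2282, 1327 and 1693 CPM in Progenitor against 238, 162 and 158 in Intermediate, and 644, 517 and 476 in SMC2 against 31.1, 10.7 and 13.9 in SMC1. Both were lowest on the same side, although Adipoq was highest in SMC2 and Lpl in Progenitor.

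The RefSeq table gives 3 windows for Pparg, printed because it is the regulator among the leading genes. The capitals mark AGGTCA, the half-site bound by nuclear receptors, searched on both strands. They lie on the plus strand at chr6:115360894-115361193, chr6:115362099-115362398 and chr6:115421816-115422115.

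Pparg window 1: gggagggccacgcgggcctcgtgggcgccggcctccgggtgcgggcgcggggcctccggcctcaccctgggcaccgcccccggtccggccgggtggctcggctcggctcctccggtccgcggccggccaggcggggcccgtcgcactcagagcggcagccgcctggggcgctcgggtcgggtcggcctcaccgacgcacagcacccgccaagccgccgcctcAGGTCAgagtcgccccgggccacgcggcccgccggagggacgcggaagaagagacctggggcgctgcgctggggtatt
Pparg window 2: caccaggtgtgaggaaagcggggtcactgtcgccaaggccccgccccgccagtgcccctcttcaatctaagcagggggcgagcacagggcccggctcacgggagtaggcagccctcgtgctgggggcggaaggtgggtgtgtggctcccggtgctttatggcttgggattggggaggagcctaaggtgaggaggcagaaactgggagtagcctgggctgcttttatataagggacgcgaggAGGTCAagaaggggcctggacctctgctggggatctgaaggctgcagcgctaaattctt
Pparg window 3: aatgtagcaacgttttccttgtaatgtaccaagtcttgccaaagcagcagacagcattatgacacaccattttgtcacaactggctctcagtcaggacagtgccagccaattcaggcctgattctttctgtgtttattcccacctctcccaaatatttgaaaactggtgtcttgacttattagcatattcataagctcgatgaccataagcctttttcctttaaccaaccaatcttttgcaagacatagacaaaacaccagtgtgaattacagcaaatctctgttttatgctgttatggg

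The first and second windows held 1 match each and the third held none. AGGTCA was in 15.7% of the windows of shared lower genes, 12.7% of those of shared higher genes, 13.1% of those of genes tested and 16.3% of all windows.

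Car3, a carbonic anhydrase abundant in fat cells, was at 70.2, 35.9 and 40.9 CPM in Progenitor and 2.49, 3.96 and 1.41 in Intermediate, beside 354, 591 and 763 in SMC2 and 7.23, 1.31 and 8.32 in SMC1. Trarg1, a regulator of glucose transporter traffic in fat, was at 7.29, 5.13 and 7.26 CPM in Progenitor against 0, 0.13 and 0.26 in Intermediate, and 63.2, 56.5 and 48.5 in SMC2 against 2.49, 1.63 and 1.82 in SMC1. Trarg1 had no count in Intermediate replicate 1, and its SMC1 values also lay below those of Progenitor. Of 39 genes of lipid storage, 2 were called higher and 10 lower in Intermediate over Progenitor, and 4 higher and 23 lower in SMC1 over SMC2 (medians -0.20 and -1.41). Adipoq, Car3, Cd36, Elovl6, Fabp4, Lpl, Plin1 and Plin2 were lower in both, and none was higher in both. Plin2, a lipid droplet coat protein, changed by -1.50 ± 0.19 for Intermediate over Progenitor and -1.05 ± 0.19 for SMC1 over SMC2.

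Among 29 adipogenic and thermogenic regulators, 7 were called higher and 6 lower in Intermediate over Progenitor, and 7 higher and 16 lower in SMC1 over SMC2 (medians 0.08 and -0.63). Ebf1, Ebf2, Ebf3, Nr1h3, Pparg and Rxrg were lower in both, and Rxra, Zfp423 and Zfp516 were higher in both, a call that none of the 3 kept with both other scalings. Ebf2, a factor of brown and beige precursors, was at 142, 111 and 131 CPM in Progenitor against 48.5, 42.3 and 42.3 in Intermediate, and 106, 76.9 and 70.0 in SMC2 against 5.04, 2.94 and 2.81 in SMC1, while its relative Ebf1 changed by less, -1.14 and -0.89. Ppargc1a and Nr4a1 were higher in Intermediate and lower in SMC1. Committed preadipocyte genes gave 5 higher and 11 lower in Intermediate over Progenitor, and 4 higher and 11 lower in SMC1 over SMC2 of 21 (medians -0.70 and -0.67), with Apod, Cd36, Dlk1, Fabp4, Ggt5, Gpc3, Lpl, Pparg and Steap4 lower in both and Clec11a and Fmo2 higher in both. Dlk1, a Notch-family protein shed by preadipocytes, was at 4.10, 4.20 and 4.99 CPM in Progenitor and 0.56, 0.75 and 0.38 in Intermediate, beside 39.3, 24.3 and 22.7 in SMC2 and 2.85, 0.47 and 0.82 in SMC1. By contrast, genes of interstitial progenitors moved apart: of 26 members, none was called higher and 16 lower in Intermediate over Progenitor, and 10 higher and 4 lower in SMC1 over SMC2 (medians -1.36 and 0.50). Their medians had opposite signs, 19 members had a more positive change in SMC1 over SMC2 by the test of the difference and 1 a less positive one, and Gfpt2, Has1 and Tnfaip6 were lower in both.

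Mature adipocyte markers stood beside this group. Of 15 markers, none was called higher and 3 lower in Intermediate over Progenitor, and 1 higher and 12 lower in SMC1 over SMC2. Their summed level was 52.1 to 97.9 CPM in Progenitor and 14.4 to 22.0 in Intermediate, 1482 to 2048 in SMC2 and 225 to 278 in SMC1, and none of them was at 0 throughout a group. Plin4 made up most of the SMC1 sum, at 179, 182 and 218 CPM, and ran the other way, at 55.7, 51.1 and 40.9 in SMC2. The adipsin gene Cfd was at 3.42, 0.80 and 0.76 CPM in Progenitor against 0.25, 3.20 and 1.53 in Intermediate, and 427, 582 and 700.0 in SMC2 against 10.9, 1.63 and 5.80 in SMC1, and Plin1, the droplet protein of mature fat cells, at 1.55, 0.87 and 1.89 CPM in Progenitor and 0.37, 0.063 and 0.32 in Intermediate, beside 80, 54.7 and 48.8 in SMC2 and 0.92, 0.33 and 0.47 in SMC1. Intermediate and Progenitor values of both were low, and the SMC2 values stood far above the rest. The part of fat cells in the shared lower genes was not tested.

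Of the other leading lower genes, 4 encode secreted plasma proteins. Hp, haptoglobin, which binds free haemoglobin (chr8:109575128-109579172, minus strand), was at 262, 224 and 368 CPM in Progenitor against 2.24, 5.90 and 6.0 in Intermediate, and 123, 199.8 and 255 in SMC2 against 8.65, 1.68 and 5.04 in SMC1. Among shared lower genes that met the naming conditions it had the largest smaller change, -5.91 ± 0.58 for Intermediate over Progenitor and -5.24 ± 0.56 for SMC1 over SMC2 (adjusted p = 2.12e-05 and 1.46e-05). Agt, angiotensinogen, the precursor of angiotensin, was at 103, 87.7 and 91.9 CPM in Progenitor and 5.65, 2.89 and 2.81 in Intermediate, beside 19.4, 15.2 and 14.7 in SMC2 and 1.68, 0.75 and 0.76 in SMC1. Vtn, vitronectin, was at 51.5, 31.3 and 47.4 CPM in Progenitor against 1.30, 1.256 and 1.21 in Intermediate, and 30.4, 46.7 and 45.4 in SMC2 against 4.68, 1.63 and 3.22 in SMC1. In each of the 3 genes the 6 Intermediate and SMC1 libraries lay below the 6 others. Serpina3c, a serine protease inhibitor, was at 102, 75.0 and 73.0 CPM in Progenitor and 7.15, 8.48 and 7.98 in Intermediate, beside 4.60, 3.16 and 5.58 in SMC2 and 0.97, 0.19 and 0.59 in SMC1, and its Intermediate libraries lay above those of SMC2, so it separated the groups only within each comparison.

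Among the leading shared lower genes were also receptors and a channel. S1pr3, a receptor of sphingosine 1-phosphate, was at 286, 212 and 306 CPM in Progenitor against 38.2, 13.6 and 16.9 in Intermediate, and 2120.1, 1393 and 1193 in SMC2 against 20.7, 10.6 and 13.5 in SMC1. Ptger3, the prostaglandin E2 receptor EP3, was at 14.5, 8.93 and 12.6 CPM in Progenitor and 0.31, 0.63 and 0.64 in Intermediate, beside 172, 126 and 96.7 in SMC2 and 6.26, 3.31 and 6.27 in SMC1. Kcna2, a voltage-gated potassium channel, was at 14, 8.40 and 11.4 CPM in Progenitor against 1.12, 1.51 and 1.53 in Intermediate, and 58.2, 40.0 and 48.1 in SMC2 against 5.14, 4.48 and 5.45 in SMC1. All 3 were higher in SMC2 than in Progenitor and separated the 6 libraries from the 6 others. The vasoactive receptor list was evenly split: 14 were called higher and 14 lower in Intermediate over Progenitor, and 19 higher and 22 lower in SMC1 over SMC2 of 55 (medians -0.14 and 0.12). Those lower in both were Adora2b, Adra1a, Adra1b, P2ry14, Ptger2, Ptger3 and S1pr3, 7 in all, and the 7 higher in both were Adra2c, Agtr1b, Bdkrb2, F2r, Npr2, Npr3 and Tbxa2r. Of the alpha-1 adrenergic receptors, Adra1a changed by -1.05 and -3.77 and Adra1b by -3.69 and -1.52, while the natriuretic peptide receptor Npr2 rose by 1.48 ± 0.18 for Intermediate over Progenitor and 2.80 ± 0.19 for SMC1 over SMC2. The angiotensin receptor Agtr1b rose by 3.22 and 2.64, to 6.66 ± 1.59 CPM in Intermediate and 15.6 ± 1.67 in SMC1.

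Potassium channels were similarly divided, with 8 higher and 5 lower in Intermediate over Progenitor, and 11 higher and 14 lower in SMC1 over SMC2 of 40 (medians -0.08 and -0.64). Abcc9, Kcnj8, Kcnj15, Kcnk6, Kcnma1, Kcns3 and Kcnt2 were higher in both, and Abcc8, Kcna2, Kcnk5 and Kcnt1 lower in both. Kcnj8 and Abcc9 encode the pore and the regulatory subunit of the vascular KATP channel. Abcc9 was at 73.5, 87.8 and 146 CPM in Progenitor and 318, 309.6 and 364 in Intermediate, beside 43.4, 74.3 and 59.7 in SMC2 and 364, 432 and 549.8 in SMC1, and Kcnj8 changed by 1.43 ± 0.18 for Intermediate over Progenitor and 1.01 ± 0.18 for SMC1 over SMC2. The regulatory subunit genes Abcc9 and Abcc8 went in opposite directions, Abcc8 by -1.44 and -4.60.

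Kcnj8 and Abcc9 are also markers of small-vessel mural cells. Of 18 such markers, 5 were called higher and 2 lower in Intermediate over Progenitor, and 5 higher and 9 lower in SMC1 over SMC2, and Higd1b and Steap4 were lower in both. Their summed level was 1384 to 2058 CPM in Progenitor, 1830.2 to 2143 in Intermediate, 6768 to 10516 in SMC2 and 4261 to 5075 in SMC1, so it overlapped between the stromal groups and was higher in SMC2 than in SMC1. Single genes weighed heavily in these sums. Steap4 made up most of the Progenitor sum, at 1396, 789 and 1166 CPM, against 574, 368 and 434 in Intermediate. In SMC2 the largest member was Rgs4, at 4085, 3217 and 2320 CPM, against 250, 233 and 234 in SMC1. Rgs5 ran the other way, at 438, 629 and 445 CPM in SMC2 against 1201, 1836 and 1564 in SMC1.

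Among inflammatory genes, the members called in both were mostly lower. In the chemokine and cytokine list, 3 were called higher and 14 lower in Intermediate over Progenitor, and 6 higher and 11 lower in SMC1 over SMC2 of 32 (medians -0.86 and -0.36). Ccl2, Ccl7, Ccl11, Cxcl1, Cxcl13, Il6, Il34 and Tslp were lower in both, and Cx3cl1 higher in both. Il6 was at 275, 276 and 246 CPM in Progenitor against 96.7, 67.4 and 104 in Intermediate, and 141, 153 and 144 in SMC2 against 17.4, 9.51 and 8.61 in SMC1. Ccl2, which attracts monocytes, was at 136 ± 4.39 CPM in Progenitor, 27.9 ± 6.47 in Intermediate, 11.3 ± 3.22 in SMC2 and 2.81 ± 0.88 in SMC1. Interferon response genes gave 3 higher and 14 lower in Intermediate over Progenitor, and 4 higher and 14 lower in SMC1 over SMC2 of 37 (medians -0.53 and -0.30), with Cxcl10, Ifitm1, Igtp, Irgm1, Isg15 and Mx2 lower in both and Ifit2 higher in both, a call it did not keep with both other scalings. Of the lower genes, only Cxcl10, Ifitm1 and Mx2 kept both calls in every alternative except the 1.5-fold test. Isg15 lost its call in Intermediate over Progenitor without Progenitor replicate 2 or 3, or without Intermediate replicate 1 or 2 (adjusted p = 0.0728 to 0.147). The interferon-inducible Ifi27l2a was at 153, 193 and 118 CPM in Progenitor and 17.0, 14.8 and 19.4 in Intermediate, beside 35.5, 53.6 and 90.5 in SMC2 and 10.1, 4.85 and 3.69 in SMC1, below the others in all 6 Intermediate and SMC1 libraries. For complement, 3 were called higher and 5 lower in Intermediate over Progenitor, and 4 higher and 6 lower in SMC1 over SMC2 of 22 (medians -0.19 and 0.09). The membrane inhibitor Cd59a was among those higher in both, and C1s1 and Vtn lower in both.

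Ptprc, the leukocyte gene CD45, did not exceed 19.2 CPM and was called in neither comparison (adjusted p = 0.619 and 0.208). Of 16 myeloid markers, 1 was called higher and 1 lower in Intermediate over Progenitor, and 3 higher and 1 lower in SMC1 over SMC2, with Csf1r higher in both, a call lost with both other scalings, the stricter filter, the replicate number as a block (adjusted p = 0.0756 in SMC1 over SMC2) and all but 1 of the fits that left out a library. Without SMC1 replicate 1, which had the highest sum of myeloid markers, the Csf1r change in SMC1 over SMC2 was 0.23 in place of 0.85 (adjusted p = 0.526). Of 15 lymphoid and plasma cell markers, none was called higher and 4 lower in Intermediate over Progenitor, and 1 higher and 0 lower in SMC1 over SMC2. Summed myeloid markers were 159 to 201 CPM in Progenitor, 121 to 159 in Intermediate, 183 to 334 in SMC2 and 164 to 714 in SMC1. The part of leukocytes in the inflammatory genes was not tested.

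**Figure D3:**
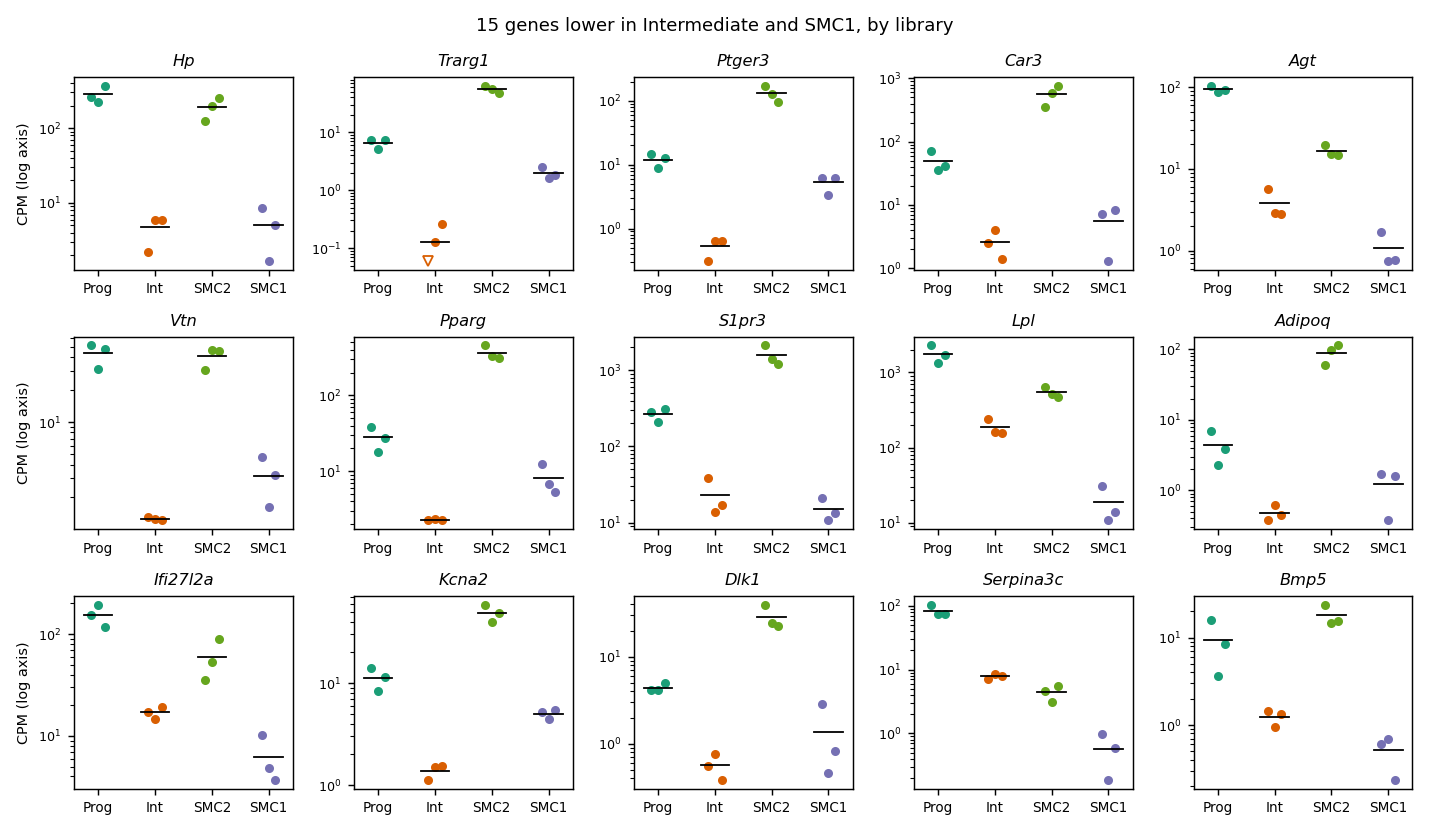
The 15 genes lower in both comparisons with the largest smaller change, as CPM on a log axis for each library (points) and the group mean (bars), in the order Progenitor, Intermediate, SMC2 and SMC1. The open triangle marks a value of 0. The genes were chosen for having no overlap within either comparison. In each panel the Intermediate points therefore lie below the Progenitor points and the SMC1 points below the SMC2 points.

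The 15th lower gene, Bmp5, was at 15.9, 3.67 and 8.40 CPM in Progenitor against 1.43, 0.94 and 1.34 in Intermediate, and 23.7, 14.8 and 15.5 in SMC2 against 0.61, 0.70 and 0.23 in SMC1, but 46.7% of its exon bases lie in another gene, so its count is uncertain. Of the 15 lower genes, 14 separated the 6 libraries from the 6 others, beside 1.80% of all genes tested. These 15 were also chosen for having no overlap within either comparison.

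Genes of mitochondrial respiration that were called were mostly lower, by small amounts at the median, and fewer were called in both comparisons than in each. Of 42 oxidative phosphorylation genes, none was called higher and 19 lower in Intermediate over Progenitor, and 0 higher and 27 lower in SMC1 over SMC2 (medians -0.43 and -0.54). Of the 42, 6 were lower in both, among them Cox7a1, Cycs, Ndufa5, Ndufa9 and Ndufb9, beside 2.43% of all genes tested. The average of both comparisons called 36 of them lower and 0 higher, beside 17.1% and 21.3% of all genes tested. Of 36 genes of fatty acid oxidation and the Krebs cycle, 3 were called higher and 4 lower in Intermediate over Progenitor, and 0 higher and 27 lower in SMC1 over SMC2 (medians -0.04 and -0.76), with Acaa2, Fh1, Sdhb and Suclg1 lower in both. Cycs, cytochrome c, changed by -0.69 ± 0.18 for Intermediate over Progenitor and -1.82 ± 0.18 for SMC1 over SMC2. None of these 10 shared calls held in every fit that left out 1 library.

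Transcription factors of position and development moved both ways. Of 52 factors, 14 were called higher and 8 lower in Intermediate over Progenitor, and 15 higher and 19 lower in SMC1 over SMC2 (medians 0.34 and -0.36). Foxc1, Foxc2, Foxl1, Foxp2, Gata6, Mecom, Pax1 and Tbx1 were higher in both, and 5 were lower in both, among them Osr2, Shox2, Tbx3 and Tbx5. Gata6, a factor of vascular smooth muscle, was at 35.8, 44.1 and 37.8 CPM in Progenitor against 113, 85.7 and 92.6 in Intermediate, and 10.9, 22.3 and 22.1 in SMC2 against 82.4, 77.7 and 86.4 in SMC1, and Foxc2, a forkhead factor of vessel development, changed by 2.30 ± 0.23 for Intermediate over Progenitor and 1.25 ± 0.21 for SMC1 over SMC2. Hox genes gave 5 higher and 1 lower in Intermediate over Progenitor, and 3 higher and 10 lower in SMC1 over SMC2 of 21 (medians 0.70 and -1.06), with Hoxb6 and Hoxb7 higher and Hoxd8 lower in both. The Hoxb7 calls were lost with upper-quartile factors (adjusted p = 0.0725 and 0.0649). The Hoxd8 call in Intermediate over Progenitor was lost in each fit that left out a Progenitor or Intermediate library (adjusted p = 0.0503 to 0.122).

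Growth factors and receptors gave 17 higher and 6 lower in Intermediate over Progenitor, and 16 higher and 16 lower in SMC1 over SMC2 of 48 (medians 0.29 and -0.16). Fgf14, Fgf16, Fgfr3, Igfbp7, Pdgfc, Pdgfd and Vegfd were higher in both, and Angpt1, Igfbp3 and Vegfa lower in both. The vessel growth factors thus diverged: Vegfa fell by 1.45 and 2.06 on the log2 scale while Vegfd rose by 2.57 and 1.0. In oxidative and conjugating metabolism, 10 were called higher and 15 lower in Intermediate over Progenitor, and 17 higher and 19 lower in SMC1 over SMC2 of 50 (medians -0.09 and -0.13). Cyp26b1, which degrades retinoic acid, Ephx1, Fmo2 and Fmo4 were among those higher in both, Fmo2 by 1.89 and 2.75. Adh1, Aox3, Ces1d, Cyp2e1, Cyp4b1, Cyp7b1, Ephx2, Gpx3 and Sult1e1 were lower in both, among them Ces1d, a carboxylesterase of fat, by -2.44 ± 0.26 for Intermediate over Progenitor and -3.72 ± 0.32 for SMC1 over SMC2.

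Contractile genes of smooth muscle changed the same way in both comparisons about as often as all genes tested, of which 5.48% were higher and 2.43% lower in both. Of the 28 on that list, 8 were called higher and 1 lower in Intermediate over Progenitor, and 9 higher and 7 lower in SMC1 over SMC2 (medians 0.40 and 0.42), with Itga8 and Smtn higher in both and Des lower in both. Des, the muscle intermediate filament desmin, was at 46.2, 35.9 and 44.6 CPM in Progenitor and 11.4, 8.85 and 13.1 in Intermediate, beside 322, 249 and 228 in SMC2 and 67.4, 66.3 and 79.1 in SMC1. Ldb3, Synm and Tpm1 were among those higher in Intermediate and lower in SMC1. Itga8, an integrin chain of smooth muscle, was at 7267 ± 1309.6 CPM in SMC1 and 803 ± 224 in SMC2, and its call in Intermediate over Progenitor was lost with upper-quartile factors (adjusted p = 0.0585).

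Genes induced by tissue dissociation were checked as a list. Of its 33 members, 6 were called higher and 1 lower in Intermediate over Progenitor, and 5 higher and 21 lower in SMC1 over SMC2 (medians 0.29 and -0.74). By the test of the difference, 20 of them were higher in Intermediate over Progenitor than in SMC1 over SMC2 and none was lower. Ccn1, Hspa1a and Hspa1b were higher in both and Myc lower in both. Hspa1a and Hspa1b are near-identical copies whose counts are uncertain, and both lost a call with upper-quartile factors (adjusted p = 0.127 and 0.0613 in SMC1 over SMC2). The part of dissociation in the shared genes was not tested. Of 11 Schwann and neural markers, 1 was called higher and 1 lower in Intermediate over Progenitor, and 1 higher and 6 lower in SMC1 over SMC2; of 11 striated muscle markers, none was called in Intermediate over Progenitor, and none higher and 6 lower in SMC1 over SMC2. Of 12 proliferation markers, none was called higher and 4 lower in Intermediate over Progenitor, and 0 higher and 1 lower in SMC1 over SMC2, and none of 3 erythroid markers was called. Where a list count is 0, it was at most 1 at an unadjusted p below 0.05 in edgeR, and 0 with DESeq2 apart from 1 striated muscle marker lower in Intermediate and SMC1.

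**Figure D4:**
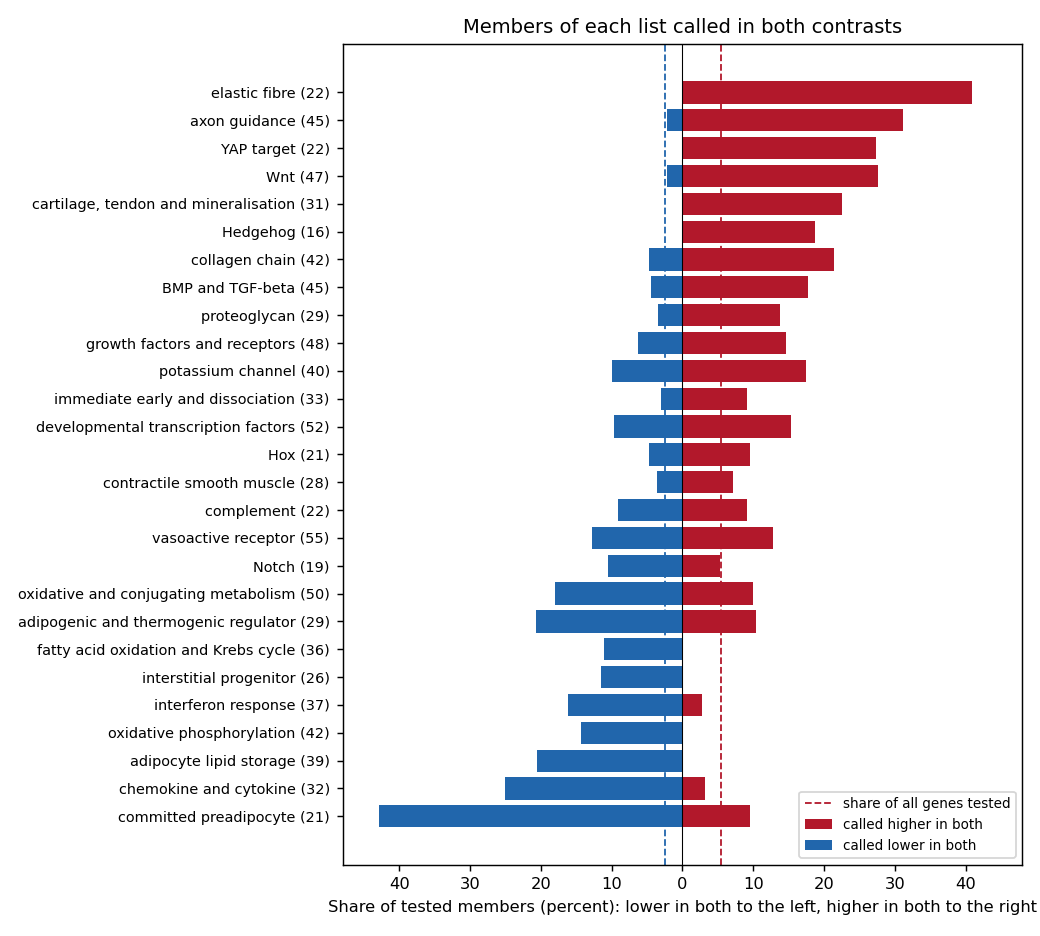
Share of each list's tested members called in the same direction in both comparisons, with members higher in both to the right and lower in both to the left, in percent. Dashed lines give the share of all genes tested, 5.48% higher and 2.43% lower. Elastic fibre genes (9 of 22), axon guidance genes (14 of 45) and Wnt genes (13 of 47) extend farthest to the right, and committed preadipocyte genes (9 of 21) and chemokine and cytokine genes (8 of 32) farthest to the left.

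**Figure D5:**
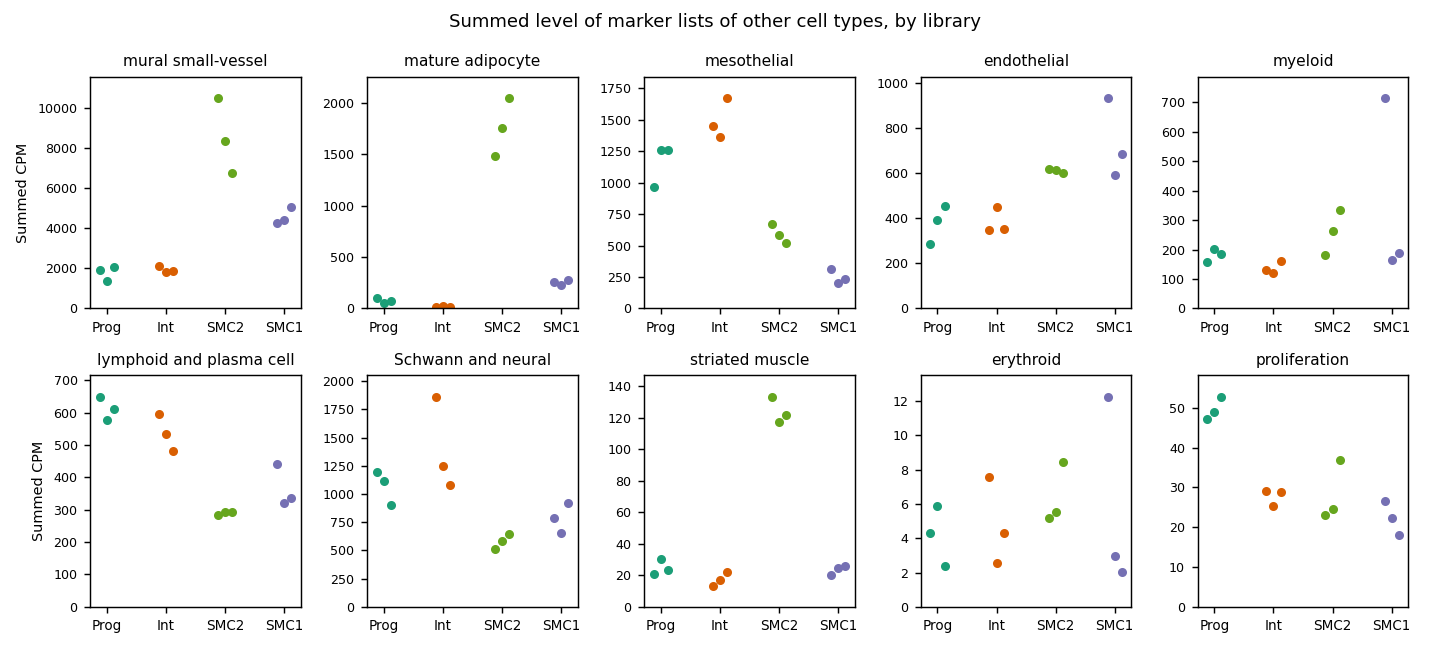
Summed CPM of each marker list in every library (points), on a linear axis from 0, by population. Adipocyte markers run from 14.4 to 22.0 CPM in Intermediate to 1482 to 2048 CPM in SMC2.

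The size of the shared changes was compared between the stromal and muscle sides. The test of the difference called 165 of the 1042 higher genes (15.8%) and 133 of the 462 lower genes (28.8%), beside 22.5% of all genes tested. Of the 165, the change was larger in SMC1 over SMC2 for 133 and in Intermediate over Progenitor for 32. Of the 133 lower genes, 97 fell further in SMC1 over SMC2 and 36 in Intermediate over Progenitor. The median changes were 0.92 and 1.13 for the higher genes and -1.47 and -1.80 for the lower genes. For the other genes a difference was not called, which does not show that the changes were equal. For Smoc1, for example, the difference was 0.28 ± 0.42, with an approximate 95% interval of -0.54 to 1.11.

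Shared genes lay on both sides of the divide. By the contrast of both SMC populations against both stromal ones, 363 of the higher genes were higher in muscle, 405 were higher in stroma and 274 were not called. Of the lower genes, 133 were higher in muscle, 220 in stroma and 109 were not called. For all genes tested, 26.4% were higher in muscle and 25.5% in stroma. Sfrp2 and Hhip were stromal, with muscle minus stroma changes of -3.89 ± 0.30 and -5.25 ± 0.24. Fbxo40 and Itga8 were muscle genes, at 3.16 ± 0.19 and 4.53 ± 0.22. Col4a6 (0.36 ± 0.16, adjusted p = 0.0658) and Hp (-0.22 ± 0.35, adjusted p = 0.629) were close to even.

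The genes called in opposite directions give the contrast to these. Pcsk1, a prohormone convertase, was at 0.23, 0.067 and 0.76 CPM in Progenitor against 1.49, 1.44 and 1.79 in Intermediate, and 141, 81.4 and 67.9 in SMC2 against 1.22, 1.49 and 1.11 in SMC1, so it was far higher in SMC2 than elsewhere, while Intermediate exceeded Progenitor at low levels. Map2, a microtubule protein of neurons, was at 1.09, 1.80 and 2.34 CPM in Progenitor and 9.82, 9.67 and 9.26 in Intermediate, beside 115, 89.3 and 72.4 in SMC2 and 6.46, 6.67 and 4.80 in SMC1. Kcne4, a potassium channel subunit, was at 54.5, 68.7 and 65.4 CPM in Progenitor against 646, 599.6 and 525 in Intermediate, and 458, 415 and 338 in SMC2 against 81.4, 70.7 and 69.6 in SMC1. Vipr2, a receptor of vasoactive intestinal peptide, was at 68.2, 82.7 and 100.2 CPM in Progenitor and 532, 432 and 426 in Intermediate, beside 59.1, 34.7 and 29.5 in SMC2 and 7.02, 8.25 and 9.02 in SMC1. All 4 were higher in Intermediate and lower in SMC1, without overlap within either comparison, as the rule for naming them required.

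In the other direction, Efhd1, a calcium-binding mitochondrial protein, was at 21.5, 22.9 and 20.4 CPM in Progenitor against 4.35, 2.64 and 1.85 in Intermediate, and 22.4, 40.6 and 30.4 in SMC2 against 164, 114 and 179 in SMC1. Sema3e, a repulsive guidance ligand, was at 15.7, 12.9 and 20.2 CPM in Progenitor and 4.47, 2.07 and 5.11 in Intermediate, beside 5.84, 12.3 and 12.8 in SMC2 and 54.2, 64.8 and 79.5 in SMC1. Btc, betacellulin, a ligand of the epidermal growth factor receptor, was at 9.62, 5.33 and 5.68 CPM in Progenitor against 2.49, 0.88 and 1.47 in Intermediate, and 3.45, 6.32 and 3.36 in SMC2 against 24.3, 23.3 and 23.5 in SMC1, and the orphan receptor gene Gpr165 was at 21.6, 13.2 and 32.3 CPM in Progenitor and 1.12, 0.44 and 0.32 in Intermediate, beside 0.37, 0.99 and 0.90 in SMC2 and 2.70, 2.70 and 2.93 in SMC1. These 4 were lower in Intermediate and higher in SMC1. Gpr165 was a Progenitor gene in level, since its SMC1 values reached at most 2.93 CPM. At least 2-fold changes in both were seen for 118 of the 295 genes higher in Intermediate and for 61 of the 165 higher in SMC1.

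Shared genes also neighboured each other on the chromosomes. Of the shared higher genes, 176 (16.9%) had another shared higher gene directly beside them among the genes tested, which held for 10.5% of all genes tested. Of the shared lower genes, 70 (15.2%) had a shared lower neighbour, beside 4.74% of all genes tested. Among genes whose exons overlap no other gene, the shares were 13.8% of 683 beside 7.82%, and 10.3% of 339 beside 4.28%. Named pairs, chosen after their values were seen, were Mgp and Art4 on chromosome 6 with a gap of 14.7 kb, and Erg and Kcnj15 on chromosome 16 with a gap of 58.9 kb, neither with a tested gene between. Tnfrsf11b and Ccn3 on chromosome 15 lay 467 kb apart with 1 tested gene between. Reads are not assigned to a strand, so neighbours whose transcripts run into each other cannot be told apart in the count.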

How the data were processed

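Poly(A) RNA was measured in 12 libraries made with a SMART-Seq v4 kit for very small RNA amounts, which does not mark strand, per the labels' protocols. The authors deposited raw read counts per gene, used here, with normalized and log-transformed tables that were not used. Per the submitters' processing notes, mm10 was the build, and STAR 2.5.2a and DESeq2 1.26.0 were among the tools. For the counting program and its annotation, names are not given in the sources used here. Of 33352 rows, 21248 took their symbol from the deposited table, 12075 took it from GENCODE M21 (GRCm38) and 29 had none. Coordinates and exon overlap come from GENCODE.

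Genes kept by filterByExpr entered edgeR 4.0.16, run with limma 3.58.1 in R 4.3.3, with TMM factors of 0.827 to 1.26, a mean for each population over all 12 libraries, 8 residual degrees of freedom and a common biological coefficient of variation of 0.206. The two-sided quasi-likelihood F test was adjusted over 19016 genes. Standard errors are the log2 change over the square root of F. Amplified reads are not independent molecules, and replicates differed by more than sampling noise (chi-square per degree of freedom of at least 9.35). The code was tested on simulated data.

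The members, the 27 function and 10 marker lists, the tests and the naming rule were chosen with earlier results of these data known. Named are the 15 higher and 15 lower genes with the largest smaller change among shared genes with no overlap in either comparison, 4 log2 CPM or more as the mean of some group and a symbol that is not a gene model (prior count 2). Also named are 4 opposite genes each way, list members called in both, and identity genes. Some members of these groups are not reported here. Alternatives were other scaling factors, no filter or a stricter one, the 1.5-fold test, DESeq2 1.42.0, separate fits, a replicate block and leaving out each library. Pairing was checked by correlating, across genes, how libraries with the same number departed from their group means. All of these correlations exceeded 0.1 for Progenitor with Intermediate, and not all did for SMC1 with SMC2. Within both pairs, however, each exceeded all correlations between libraries of different number. Across the divide they varied, for example 0.233, -0.00524 and 0.346 for Intermediate with SMC2, beside at most 0.0888 for different numbers. The reported fit has no term for pairing, which entered only as the replicate block among the alternatives.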

Additional observations from a re-analysis of the deposited data

Results flagged for a closer look

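For the named genes below, the change in Intermediate over Progenitor differed from the change in SMC1 over SMC2 by the edgeR test of the difference itself. Values are the first log2 change minus the second, with the standard error. Of all genes tested, 22.5% differed by this test.

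Among genes called in opposite directions, the difference was 8.41 ± 0.59 (adjusted p = 1.72e-08) for Pcsk1, 6.43 ± 0.33 (adjusted p = 7.95e-11) for Map2, 5.68 ± 0.26 (adjusted p = 3.29e-11) for Kcne4 and 4.81 ± 0.33 (adjusted p = 3.87e-09) for Vipr2, all higher in Intermediate over Progenitor. It was -7.03 ± 0.59 (adjusted p = 6.68e-08) for Gpr165, -5.16 ± 0.37 (adjusted p = 1.03e-08) for Efhd1, -4.75 ± 0.44 (adjusted p = 7.66e-07) for Sema3e and -4.53 ± 0.45 (adjusted p = 5.48e-07) for Btc, all higher in SMC1 over SMC2.

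Among genes lower in both, the fall was the larger in SMC1 over SMC2 for S1pr3, with a difference of 3.17 ± 0.49 (adjusted p = 2.01e-04), for Adipoq, with 3.02 ± 0.85 (adjusted p = 0.0188), and for Pparg, with 1.86 ± 0.44 (adjusted p = 0.00475). The same held for Bmp5, whose count is uncertain, with 2.16 ± 0.68 (adjusted p = 0.0299), and for Lpl, with 1.63 ± 0.45 (adjusted p = 0.0143). Vtn fell further in Intermediate over Progenitor, with -1.42 ± 0.44 (adjusted p = 0.0251).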

How the results depend on the processing

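The 30 leading shared genes kept both calls and their direction in all 20 alternative settings. Upper-quartile factors gave 662 shared higher and 704 shared lower genes, 461 of them among the 462 lower genes of the reported fit. A test against a 1.5-fold change (edgeR's glmTreat) left 294 shared higher, 188 shared lower and 125 opposite genes. It left 1050 higher and 1142 lower for the average, 1394 and 994 for the difference between the comparisons, and 2420 and 2901 for muscle against stroma, since it asks for a larger change. Leaving out 1 library gave 683 (SMC2 replicate 2) to 1202 (Progenitor replicate 3) shared higher genes, and 305 (Intermediate replicate 2) to 568 (SMC2 replicate 1) shared lower genes. Of the reported genes, 513 of 1042 higher (49.2%) and 223 of 462 lower (48.3%) held in every such fit. Calls outside that core were lost in at least 1 such fit. Each fit also repeated the filter and the scaling, so the loss need not come from the library itself, and the cause was not tested. For Intermediate over Progenitor, the reported 2419 higher genes became 1593 with upper-quartile factors, 1607 with the stricter filter and 1600 without SMC2 replicate 2, and the 1799 lower genes became 1155 without Intermediate replicate 2. The balance of that comparison also turned, with 2473 lower genes under upper-quartile factors and 2104 under the stricter filter. Separate fits gave 1843 higher and 2294 lower. Lower genes likewise outnumbered higher ones in each fit that left out an SMC library. The 1.5-fold test left 714 and 664 there, and 1588 and 1893 in SMC1 over SMC2. The other counts of genes called in each comparison, in both, in opposite directions, in the average, in the difference and for muscle against stroma lay within 1.5 times the reported ones, among them DESeq2 with 953 shared higher and 505 lower and fits of each comparison on its own libraries with 763 and 539. Genes at a few CPM, such as Trarg1 and Plin1 in Intermediate, rest on few counts there.

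Same-numbered libraries of Progenitor and Intermediate had correlations of 0.171, 0.191 and 0.170, beside -0.101 to -0.067 for libraries of different number. Those of SMC1 and SMC2 had 0.145, 0.0469 and 0.159, beside -0.139 to -0.00607. The reported fit did not pair libraries. A fit with the replicate number as a block gave 1124 shared higher and 548 shared lower genes, with 1024 and 449 of the reported ones among them. The block changed the call of 1 named gene, Csf1r in SMC1 over SMC2 (adjusted p = 0.0756).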
